A study of Mus musculus with 6 samples.

Results

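The Notch pathway was examined through 10 genes in cortical cells with reduced Ybx1, an RNA-binding protein that reads 5-methylcytosine in mRNA. The genes were the receptors Notch1, Notch2 and Notch3, the ligands Dll1, Dll3 and Jag1, the glycosyltransferase gene Mfng and the effectors Hes1, Hes5 and Hey1. They were chosen by symbol among the 17920 genes listed, and all 10 were listed and passed the filter on low counts. Cells from the mouse cortex at embryonic day E13.5 had been cultured, infected with an shRNA lentivirus and selected with puromycin, which kills uninfected cells. There were 3 control libraries (labelled WT) and 3 with knockdown of Ybx1 (labelled KD). A deletion is named in the series text and a knockdown in the methods. The strain, the hairpin used in each library and the number of embryos behind a replicate were not given in the sources used here, so p-values measure the spread between these libraries.

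Notch signalling passes between touching cells. A ligand on one cell pulls on a receptor on its neighbour, proteases release the intracellular part of the receptor, and this part joins the DNA-binding protein Rbpj to switch on genes of the Hes and Hey families, which encode transcriptional repressors. In the embryonic cortex, Hes repressors hold down proneural genes such as Neurog2 and keep radial glia as progenitors, while proneural factors switch on Delta-like ligands that signal to the neighbours. This exchange is known as lateral inhibition, and for that reason ligands and effectors are set side by side below.

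Promoter sequence of the effector and the ligand with the highest levels here, Hes5 and Dll1, is shown because these genes stand at either end of this exchange. RefSeq windows were matched for 7 of the 10 members, all but Hes1, Hey1 and Mfng, and gave 8 windows because Dll1 has a pair of start sites. In the 250 bases before the start, the core of the Rbpj motif (TGGGAA, searched on both strands) was found in 1 of the 8 windows, that of Hes5, and in 21.6% of all 32851 windows of that length. The E box (CANNTG), the motif read by proneural factors, was found in 5 of the 8 windows, against 66.2% of all windows. The N box (CACNAG, both strands), a motif bound by Hes repressors, was found in 3 of the 8 windows, against 36.7% of all. The bases before the Hes5 start lie at chr4:154960673-154960922 on the plus strand of GRCm38.p6, with the Rbpj cores in capitals. They begin 226 and 82 bases before the start, and neither overlaps the E box of this window. RefSeq lets the gene begin further upstream, at 154960626, so this window lies within its span. The bases before the outer Dll1 start lie at chr17:15376933-15377182 on the minus strand, with the E boxes in capitals. These begin 229, 155 and 132 bases before the start.
Hes5: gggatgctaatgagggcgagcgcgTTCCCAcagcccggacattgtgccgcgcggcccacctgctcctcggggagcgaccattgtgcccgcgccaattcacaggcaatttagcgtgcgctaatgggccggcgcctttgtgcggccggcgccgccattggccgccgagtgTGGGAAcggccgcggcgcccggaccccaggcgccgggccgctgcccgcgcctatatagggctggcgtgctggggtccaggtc
Dll1: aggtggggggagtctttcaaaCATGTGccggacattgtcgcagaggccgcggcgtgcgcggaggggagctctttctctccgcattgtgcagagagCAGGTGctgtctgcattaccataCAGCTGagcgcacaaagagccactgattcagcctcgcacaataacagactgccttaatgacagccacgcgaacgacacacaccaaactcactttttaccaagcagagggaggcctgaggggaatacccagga

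The targeted gene and the cell types were checked first. Ybx1 was at 618, 615 and 653 normalised counts (CPM, scaled to 1000000 per library) in the controls numbered 1, 2 and 3, and at 98.3, 92.2 and 159 CPM in the KD libraries of the same numbers. KD replicate 3 thus kept 25.3% of the WT mean, against 15.6% and 14.7% in the others. Markers of neurons summed to 5747 to 6760 TPM (a scale that corrects for transcript length) over the 6 libraries and radial glia markers to 3069 to 3786 TPM. Astrocyte and oligodendrocyte precursor markers summed to 323.9 to 464.2 TPM. The Y-linked gene Eif2s3y had 3 estimated counts in both libraries numbered 2 and between 405 and 693 in the others. Results were therefore also computed without both libraries numbered 2. In such bulk RNA, fewer cells of a type and less RNA per cell cannot be told apart.

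Per transcript length, Hes5 was the most abundant of the 10 genes in WT and Jag1 the least. Hes5 was at 46.1 ± 9.57 TPM (SD, n = 3), followed by Dll1 at 25.8 ± 3.46 TPM and Hey1 at 24.6 ± 2.39 TPM. Dll3 was at 18.9 ± 0.495 TPM and Notch1 at 18.02 ± 2.70 TPM. Lower levels were found for Notch2 (8.78 ± 2.55 TPM), Hes1 (6.98 ± 0.628 TPM), Notch3 (6.37 ± 0.537 TPM), Mfng (6.21 ± 1.296 TPM) and Jag1 (3.003 ± 0.717 TPM). Within this order the ranges of the WT libraries overlapped between Dll1 and Hey1, between Dll3 and Notch1, and between neighbours within the run Notch2, Hes1, Notch3 and Mfng. They were apart between Hes5 and Dll1, Hey1 and Dll3, Notch1 and Notch2, and Mfng and Jag1. In KD, Mfng stood at 15.1 ± 2.14 TPM and overlapped with Notch2 at 15.3 ± 0.592 TPM, having moved from rank 9 to rank 7. Hes5 remained first and Jag1 last.

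Of the 10 genes, 5 rose in KD (Notch2, Jag1, Mfng, Hes1 and Hey1), 0 fell and 5 did not pass the threshold (an adjusted p of 0.05 in edgeR's quasi-likelihood test). Among all 13669 genes tested, 24% passed the same threshold, 12% as higher and 11.9% as lower. DESeq2 called 4 members higher and 0 lower, beside 1412 and 1373 of the 13669 genes. At an unadjusted p under 0.05 in edgeR, 6 members were higher and 1, Notch3, was lower. The share of all genes at that looser limit was not computed, so these last counts have no background. The median log2 fold change (KD minus WT) was 0.28 over the 10 genes and -0.0013 over all genes tested. For 6 of the 10 every KD library lay above every WT library in CPM, as for 21% of all genes, and for 0 every KD library lay below, as for 20.6% of all genes. With the replicate number as a block, which the pairing of the libraries allows, 6 members rose and 1 fell, where 18.6% of all genes passed as higher and 18.1% as lower. The count of risen members was 1 without WT replicate 2, 2 without KD replicate 2 and 0 without both libraries numbered 2, while 9 of the 10 fold changes stayed above 0. The count of risen genes over the whole table dropped in the same fits, from 1646 to 779, 884 and 135.

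**Figure D1:**
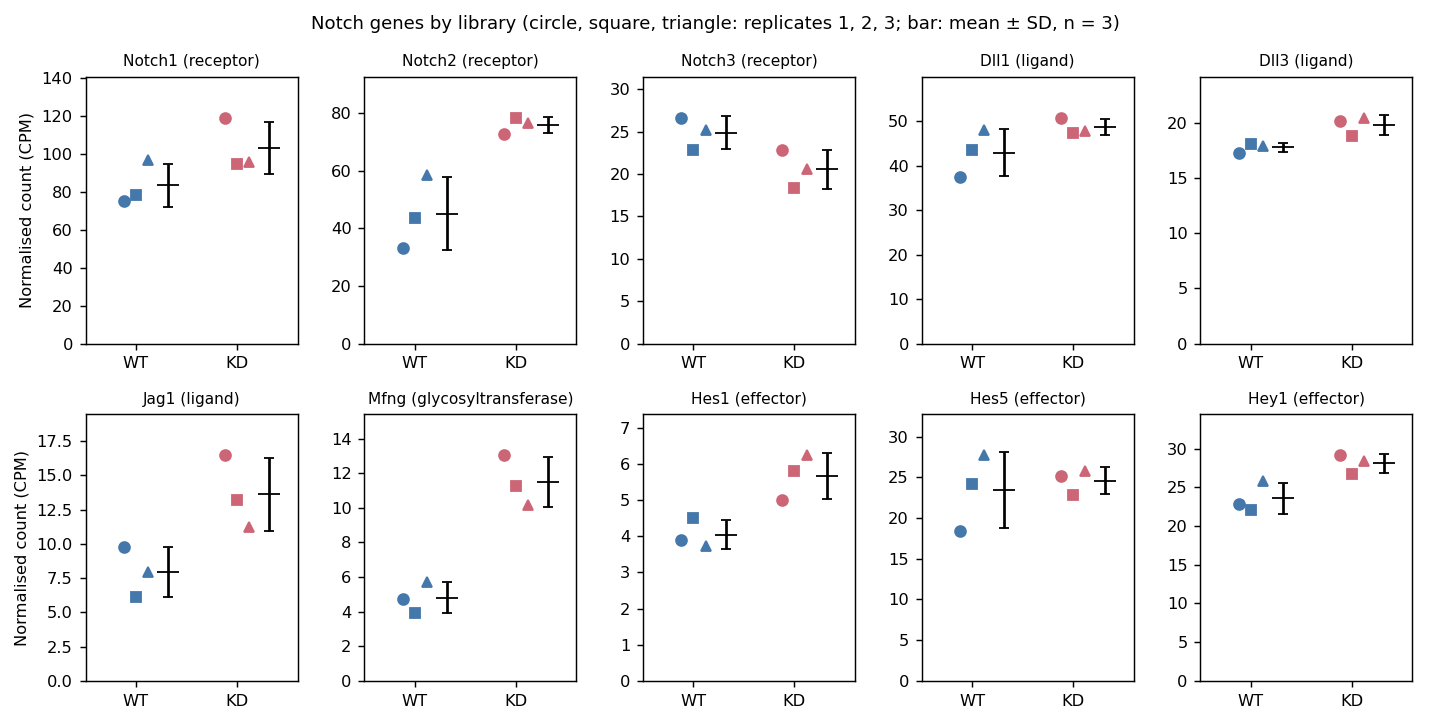
Normalised counts (CPM, linear axes from 0) of the 10 Notch genes in each WT (blue) and KD (red) library, with the mean and SD of 3 libraries beside them. The KD libraries sit above all WT libraries for Notch2, Dll3, Jag1, Mfng, Hes1 and Hey1, and the groups overlap for Notch1, Notch3, Dll1 and Hes5.

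The receptors did not move together. Notch2 (Entrez Gene 18129, chromosome 3, positions 98013538 to 98150367) rose, while Notch1 and Notch3 missed the threshold and passed it with the replicate block, Notch1 as higher and Notch3 as lower. Notch2 was at 33.2, 43.6 and 58.4 CPM in the controls numbered 1, 2 and 3 and at 73.0, 78.5 and 76.5 CPM in KD. WT replicate 1 was the lowest library and the KD libraries lay close together above all WT libraries. The means were 45.1 ± 12.7 and 76.0 ± 2.78 CPM, a 1.69-fold difference (log2 fold change 0.75, SE 0.16, adjusted p = 0.0116). The call was lost without WT replicate 2 (adjusted p = 0.0525) and without both libraries numbered 2 (adjusted p = 0.157), against 6.04e-06 to 0.157 over all 17 alternatives.

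Notch1 (Entrez Gene 18128, chromosome 2, positions 26457902 to 26503822), the most abundant receptor per length, was at 75.3, 78.3 and 96.6 CPM in the controls and at 119, 94.9 and 95.6 CPM in KD. The groups overlapped, with WT replicate 3 above KD replicates 2 and 3 and with KD replicate 1 highest. The log2 fold change was 0.31 (SE 0.11, adjusted p = 0.08), and it passed with the replicate block (adjusted p = 0.0139), with DESeq2 (0.0303) and without WT replicate 3 (0.0219). Notch3 (Entrez Gene 18131, chromosome 17, positions 32120820 to 32166896), the receptor best known from the mural cells of vessels, was at 26.6, 22.8 and 25.2 CPM in the controls and at 22.8, 18.3 and 20.5 CPM in KD. KD replicate 1 lay just above the lowest WT library, and the other KD libraries lay below all WT libraries. Its log2 fold change was -0.27 (SE 0.10, adjusted p = 0.0752), and it fell with the replicate block (adjusted p = 0.00782) and without KD replicate 1 (0.0458). Notch3 was the only member with a negative fold change.

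The composition of the receptor RNA can be read from TPM within each library. Notch2 made up 21.9%, 27.1% and 29.4% of the summed TPM of the 3 receptors in WT and 31.0%, 37.7% and 36.5% in KD. Notch3 made up 23.1%, 18.7% and 16.6% in WT and 12.8%, 11.6% and 12.9% in KD. The KD libraries thus lay above all WT libraries in the share of Notch2 and below them in the share of Notch3. The share of Notch1 was 54.4% ± 0.583 in WT and 52.5% ± 3.20 in KD (n = 3). These shares were not tested.

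Mural and endothelial cells also carry Notch receptors, so their markers were set beside the receptors. The 8 mural markers summed to 3.84 to 8.22 TPM in WT and 4.88 to 8.68 TPM in KD, and the 7 endothelial markers to 1.77 to 2.56 and 1.5 to 2.58 TPM. Of these, 5 of the 8 mural and 5 of the 7 endothelial markers stayed below 1 CPM in every library, and none was at 0 in all 6. Rgs5, Kcnj8 and Abcc9 of the mural list and Cdh5 and Cldn5 of the endothelial list were among those below 1 CPM. Other mural markers passed that level. Pdgfrb ranged from 4.49 to 7.41 CPM over the controls and from 7.81 to 9.94 CPM after knockdown. Acta2 reached 2.83 CPM (KD replicate 1) and Tagln 1.88 CPM (WT replicate 1). Of the 3 mural markers tested, 1 passed the threshold, as did 24% of all genes. It was Pdgfrb, which rose (log2 fold change 0.72, adjusted p = 0.0318), while Acta2 was at 0.23 (0.868) and Tagln at -0.43 (0.726).

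Among the ligands, Jag1 rose, and the Delta-like ligands Dll1 and Dll3 did not pass the threshold. Jag1 (Entrez Gene 16449, chromosome 2, positions 137081451 to 137116520) was at 9.77, 6.11 and 7.97 CPM in the controls and at 16.5, 13.2 and 11.2 CPM in KD. Its lowest KD library lay above its highest WT library. The means were 7.95 ± 1.83 and 13.6 ± 2.66 CPM, a 1.71-fold difference (log2 fold change 0.78, SE 0.19, adjusted p = 0.0205). The call was lost without WT replicate 2 (adjusted p = 0.0693) and without either KD replicate 1 (0.0612) or 2 (0.0606), against 2.37e-04 to 0.168 over its alternatives.

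Dll1 (Entrez Gene 13388, chromosome 17, positions 15367354 to 15376932), the ligand that proneural factors switch on, was at 37.3, 43.4 and 48.1 CPM in the controls and at 50.7, 47.3 and 47.8 CPM in KD. WT replicate 3 lay between the KD libraries, and WT replicate 1 was lowest. The log2 fold change was 0.18 (SE 0.09, 95% interval -0.02 to 0.38, adjusted p = 0.169). Dll3 (Entrez Gene 13389, chromosome 7, positions 28293555 to 28301785), a Delta-like protein that acts on Notch within the same cell, was at 17.3, 18.1 and 17.9 CPM in the controls and at 20.2, 18.8 and 20.5 CPM in KD. The groups did not overlap, but KD replicate 2 stood only slightly above the WT libraries. Its log2 fold change was 0.16 (SE 0.08, 95% interval -0.02 to 0.33, adjusted p = 0.177). Neither ligand passed the threshold with the replicate block (adjusted p = 0.0735 for Dll1 and 0.14 for Dll3), and Dll1 passed it without WT replicate 3 (log2 fold change 0.27, adjusted p = 0.0426).

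Mfng changed most among the 10 genes. It encodes manic fringe, a glycosyltransferase of the Golgi that extends O-fucose on Notch receptors and so alters which ligands they answer to. Mfng (Entrez Gene 17305, chromosome 15, positions 78755882 to 78773516) was at 4.73, 3.95 and 5.73 CPM in the controls and at 13.0, 11.3 and 10.2 CPM in KD. All KD libraries stood well above all WT libraries. The means were 4.80 ± 0.892 and 11.5 ± 1.44 CPM, a 2.39-fold difference (log2 fold change 1.26, SE 0.16, adjusted p = 0.00139). It kept its call in every alternative except the fit without both libraries numbered 2 (log2 fold change 1.15, adjusted p = 0.0506). The related fringe gene Lfng averaged 17.3 ± 2.38 CPM in WT against 17.1 ± 1.22 CPM in KD (log2 fold change -0.02, 95% interval -0.28 to 0.24, adjusted p = 0.934). The sign of this small value turned under total count scaling, on TPM and without WT replicate 3, KD replicate 2 or both libraries numbered 2.

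Of the effectors, Hes1 and Hey1 rose slightly and Hes5, the most abundant, did not pass the threshold. Hes1 (Entrez Gene 15205, chromosome 16, positions 30065357 to 30067796) was at 3.88, 4.51 and 3.74 CPM in the controls and at 4.99, 5.80 and 6.24 CPM in KD. The groups did not overlap, and the values rested on 60 to 103 estimated counts per library. The fold was 1.403 (log2 fold change 0.49, SE 0.15, adjusted p = 0.0445). Hey1 (Entrez Gene 15213, chromosome 3, positions 8663359 to 8667038), a repressor of the related Hey family, was at 22.8, 22.1 and 25.8 CPM in the controls and at 29.2, 26.7 and 28.4 CPM in KD. Again no libraries overlapped, and the fold was 1.19 (log2 fold change 0.25, SE 0.08, adjusted p = 0.0476). Both calls were close to the threshold and each was lost in 9 of 17 alternatives, among them DESeq2 (adjusted p = 0.12 for Hes1 and 0.0946 for Hey1), upper quartile scaling and the omission of WT replicate 1 (0.105 and 0.12) or WT replicate 2 (0.0687 and 0.159). Adjusted p ran from 0.0157 to 0.182 for Hes1 and from 0.0123 to 0.219 for Hey1 over the alternatives.

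Hes5 (Entrez Gene 15208, chromosome 4, positions 154960626 to 154962372), whose promoter is printed above, was at 18.4, 24.1 and 27.7 CPM in the controls and at 25.2, 22.8 and 25.8 CPM in KD. The KD libraries lay within the range of the WT libraries, where WT replicate 1 was lowest and WT replicate 3 highest. The log2 fold change was 0.07 (SE 0.13, 95% interval -0.23 to 0.38, adjusted p = 0.736) and turned to -0.08 without WT replicate 1. Non-coding genes on the opposite strand share exon bases with Hes5 (433 of 1363), Dll1 (867 of 4219), Notch1 (1068 and 414 of 14232) and Notch3 (488 of 8089), so reads of these partners cannot be told apart without strand. Another gene overlaps Notch2 on the same strand (541 of 10782), where strand does not separate the reads. The estimated counts of all 10 genes were whole numbers in every library. None of the overlapping genes was among the 17920 listed, so whole numbers do not tell whether their reads were included.

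**Figure D2:**
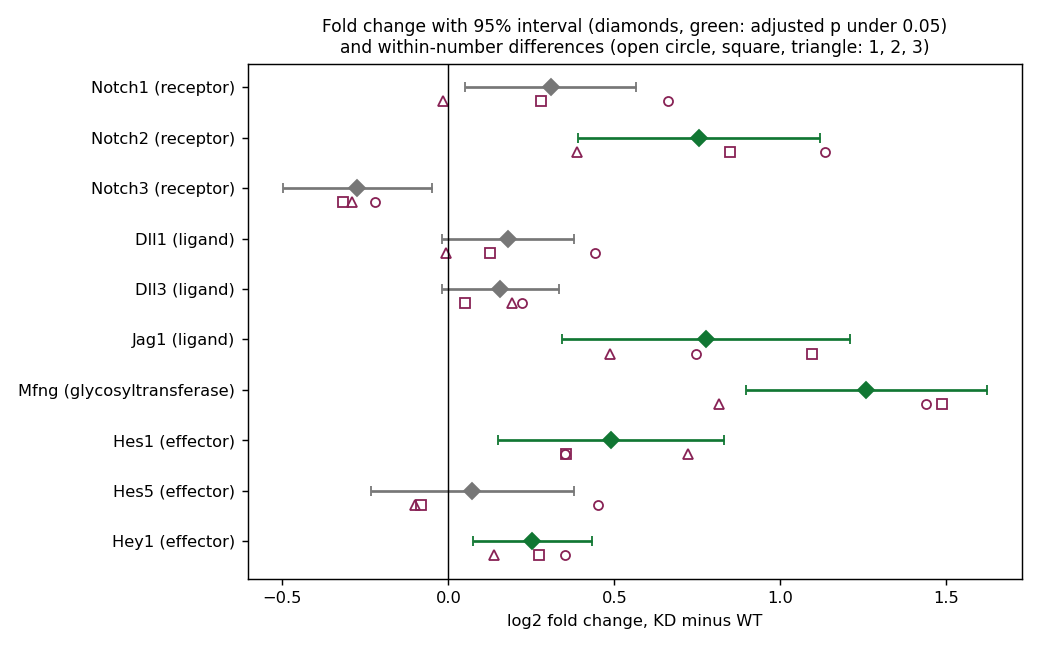
Log2 fold change of KD over WT for the 10 Notch genes (diamonds, 95% interval, green where the adjusted p was under 0.05), with the log2 difference between same-numbered libraries below each. Mfng is farthest to the right at 1.26, and Notch3, at -0.27, is the only gene left of 0.

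Ligands and effectors were next compared as groups. The mean log2 CPM of the 3 ligands was 4.19 ± 0.09 in WT and 4.56 ± 0.11 in KD, and that of the 3 effectors was 3.72 ± 0.12 in WT and 3.99 ± 0.07 in KD (SD, n = 3). The difference, ligands minus effectors, was 0.64, 0.33 and 0.45 in the controls numbered 1, 2 and 3, against 0.73, 0.57 and 0.42 after knockdown. The groups overlapped in this difference, which was 0.10 higher in KD, less than its SD of 0.16 in WT. The change was 0.09, 0.24 and -0.03 in pairs 1, 2 and 3, and no p is given for a score over chosen genes. On log2(TPM + 1), which takes account of transcript length, the difference was below 0 in every library, -0.72 ± 0.13 in WT and -0.66 ± 0.14 in KD (SD, n = 3), so the effectors were the higher group there. Within both groups the gene with the lowest TPM had the highest log2 fold change, Hes1 (0.49) among the effectors and Jag1 (0.78) among the ligands.

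The summed TPM of the ligands was 44.4, 47.2 and 51.6 in the controls and 60.7, 56.1 and 55.9 after knockdown, with no overlap. That of the receptors was 29.5, 30.8 and 39.2 in WT and 47.8, 42.3 and 41.4 in KD, also with no overlap. That of the effectors was 66.6, 77.3 and 89.0 in WT and 91.7, 86.8 and 93.0 in KD, where KD replicate 2 lay below WT replicate 3. WT replicate 1 was the lowest library in all of these sums.

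**Figure D3:**
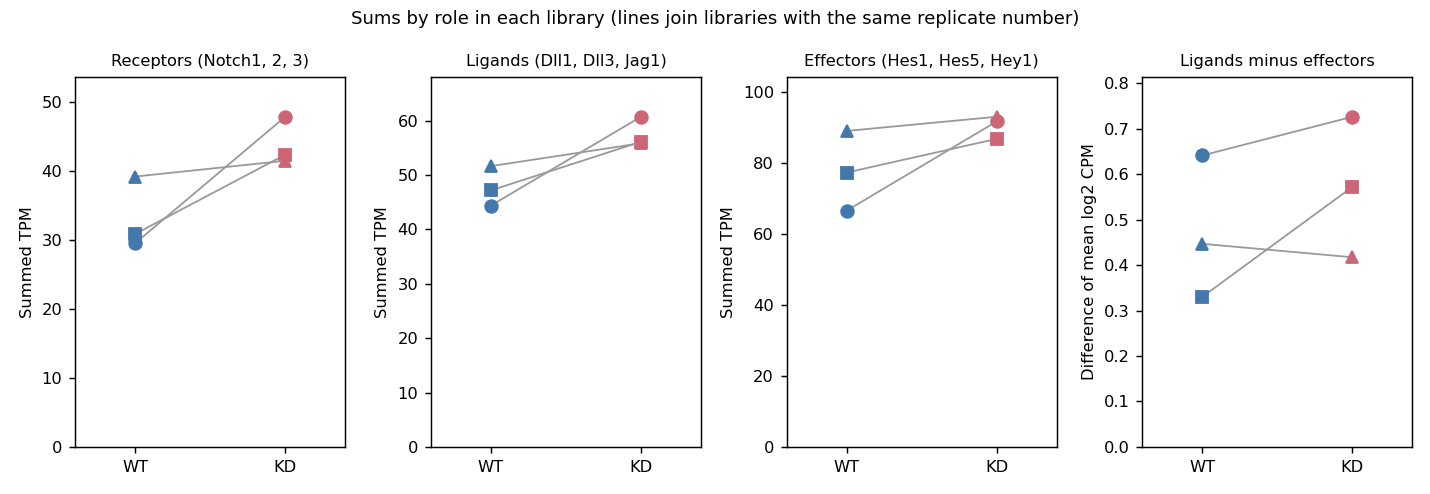
Summed TPM of the receptors, ligands and effectors, and the difference between the mean log2 CPM of ligands and effectors, in each library (axes from 0, lines join same-numbered libraries). Receptor and ligand sums are apart between the groups, effector sums overlap, and the difference overlaps, with pair 3 lower in KD by a small amount (-0.03).

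The size of the differences varied between the replicate numbers. The median log2 difference between KD and WT over the 10 genes was 0.45 in pair 1, 0.28 in pair 2 and 0.16 in pair 3, against 0.00051, -0.0046 and 0.0017 over all genes tested. Pair 3 had the lowest value for 7 of the 10 genes, against 36.5% of all genes tested. The 3 pairs were all higher in KD for 6 of the 10 genes, against 31% of all genes, and all lower for 1, Notch3, against 30.7%. Hes1 went the other way, with 0.35 in pairs 1 and 2 and 0.72 in pair 3. Pair 3 holds the KD library that kept the most Ybx1, and the part of this in the differences was not tested.

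The other genes of the pathway were taken from a list of 56, of which 53 were tested. In KD, 8 were higher and 10 lower, beside 12% and 11.9% of all genes tested, with a median log2 fold change of 0.02. With the replicate block 16 were higher and 14 lower, beside 18.6% and 18.1% of all genes. Genes of the nuclear complex and its corepressors included 6 that rose and 10 that did not pass the threshold, with a median of 0.23 (10 higher and 1 lower with the block). Genes of ligand endocytosis and receptor turnover included 6 lower and 1 higher of 14, with a median of -0.12, and the same counts with the block. Of the 6 other receptor and ligand genes 1 fell (1 higher and 2 lower with the block). The 5 genes of glycosylation and furin cleavage did not pass, with a median of -0.02, and 1 of them, Pofut1, was higher with the block (adjusted p = 0.0397). No test of the difference between these groups was made.

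In the nucleus, Rbpj, the DNA-binding partner of all Notch receptors, rose from 56.3 ± 1.85 to 71.7 ± 4.85 CPM (log2 fold change 0.35, SE 0.06, adjusted p = 0.00592). Tle1, a Groucho corepressor that Hes proteins recruit, rose from 73.4 ± 5.55 to 115.7 ± 3.20 CPM (0.66, SE 0.06, adjusted p = 4.7e-04) and did so in every alternative. The histone deacetylase gene Hdac1 (0.35, adjusted p = 0.0111) and the acetyltransferase gene Kat2b (0.34, adjusted p = 0.0194) rose as well, Kat2b not without WT replicate 1 (0.0582) or KD replicate 1 (0.0592). The coactivator gene Maml1 was at 0.27 (adjusted p = 0.0957) and passed with the replicate block (adjusted p = 0.0391) but in no other alternative.

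Among genes of ligand endocytosis, the ubiquitin ligase genes Mib1 and Neurl1a fell. Mib1, needed for the uptake of Delta and Jagged ligands, fell from 93.0 ± 1.70 to 78.1 ± 2.61 CPM (log2 fold change -0.25, SE 0.05, adjusted p = 0.00813). On TPM its call was lost (log2 fold change -0.17 with a pseudocount of 1, adjusted p = 0.134). Neurl1a, a neuralized-type ligase, fell from 72.9 ± 3.28 to 48.3 ± 1.15 CPM (-0.59, SE 0.06, adjusted p = 4.38e-04) in every alternative. Among genes of receptor turnover, the Numb-like gene Numbl fell (-0.32, adjusted p = 0.00251), whereas its relative Numb, an inhibitor of Notch, was at 0.17 (adjusted p = 0.185) with fractional counts in all libraries. Bmp2k, a kinase gene related to the Numb-associated kinase Aak1, fell (-0.40, adjusted p = 0.0337), and Fbxw7, which marks the released receptor for destruction, rose (0.36, adjusted p = 0.0363). Fractional counts, which are less certain, were found for Fbxw7 in all libraries and for Bmp2k in 5. The call of Bmp2k was lost in 8 of 17 alternatives (adjusted p up to 0.194) and that of Fbxw7 in 5 (up to 0.202).

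Of 8 genes of the proteases that cut the receptor, 2 fell and 6 did not pass the threshold, beside 11.9% of all genes as lower. With the replicate block 2 were higher and 3 lower, beside 18.6% and 18.1% of all genes. Adam10, which makes the cut outside the membrane, fell from 93.9 ± 7.53 to 77.2 ± 3.95 CPM (log2 fold change -0.28, SE 0.07, adjusted p = 0.0198), a call lost in 6 of 17 alternatives, among them the omission of WT replicate 2 (0.0628) and of either KD replicate 1 (0.0604) or 2 (0.0513). The γ-secretase subunit gene Psen2 fell from 17.4 ± 0.828 to 13.4 ± 0.511 CPM (-0.38, adjusted p = 0.0147), though not without WT replicate 2 (0.0589) or KD replicate 2 (0.0578). Dner, a transmembrane protein of neurons with Notch-like repeats, fell from 357.5 ± 20.7 to 243.6 ± 9.49 CPM (-0.55, SE 0.06, adjusted p = 5.84e-04) in every alternative.

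Of 4 other targets and Hes relatives tested, 1 rose and 1 fell, beside 12% and 11.9% of all genes. With the block 1 rose and 2 fell, beside 18.6% and 18.1%. Hes6, which counters Hes1 and favours neuronal differentiation, rose from 45.9 ± 2.58 to 57.3 ± 2.35 CPM (log2 fold change 0.32, SE 0.06, adjusted p = 0.00758). Nrarp, a target that dampens Notch activity, was at -0.25 (adjusted p = 0.113) and passed as lower with the replicate block (adjusted p = 0.045) and without KD replicate 3 (0.039). Hes7, known from the segmentation clock, fell from a low 2.17 ± 0.053 to 1.17 ± 0.070 CPM (-0.89, SE 0.20, adjusted p = 0.0138). DESeq2 (0.0788) and the fit without WT replicate 2 (0.0516) did not call it.

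**Figure D4:**
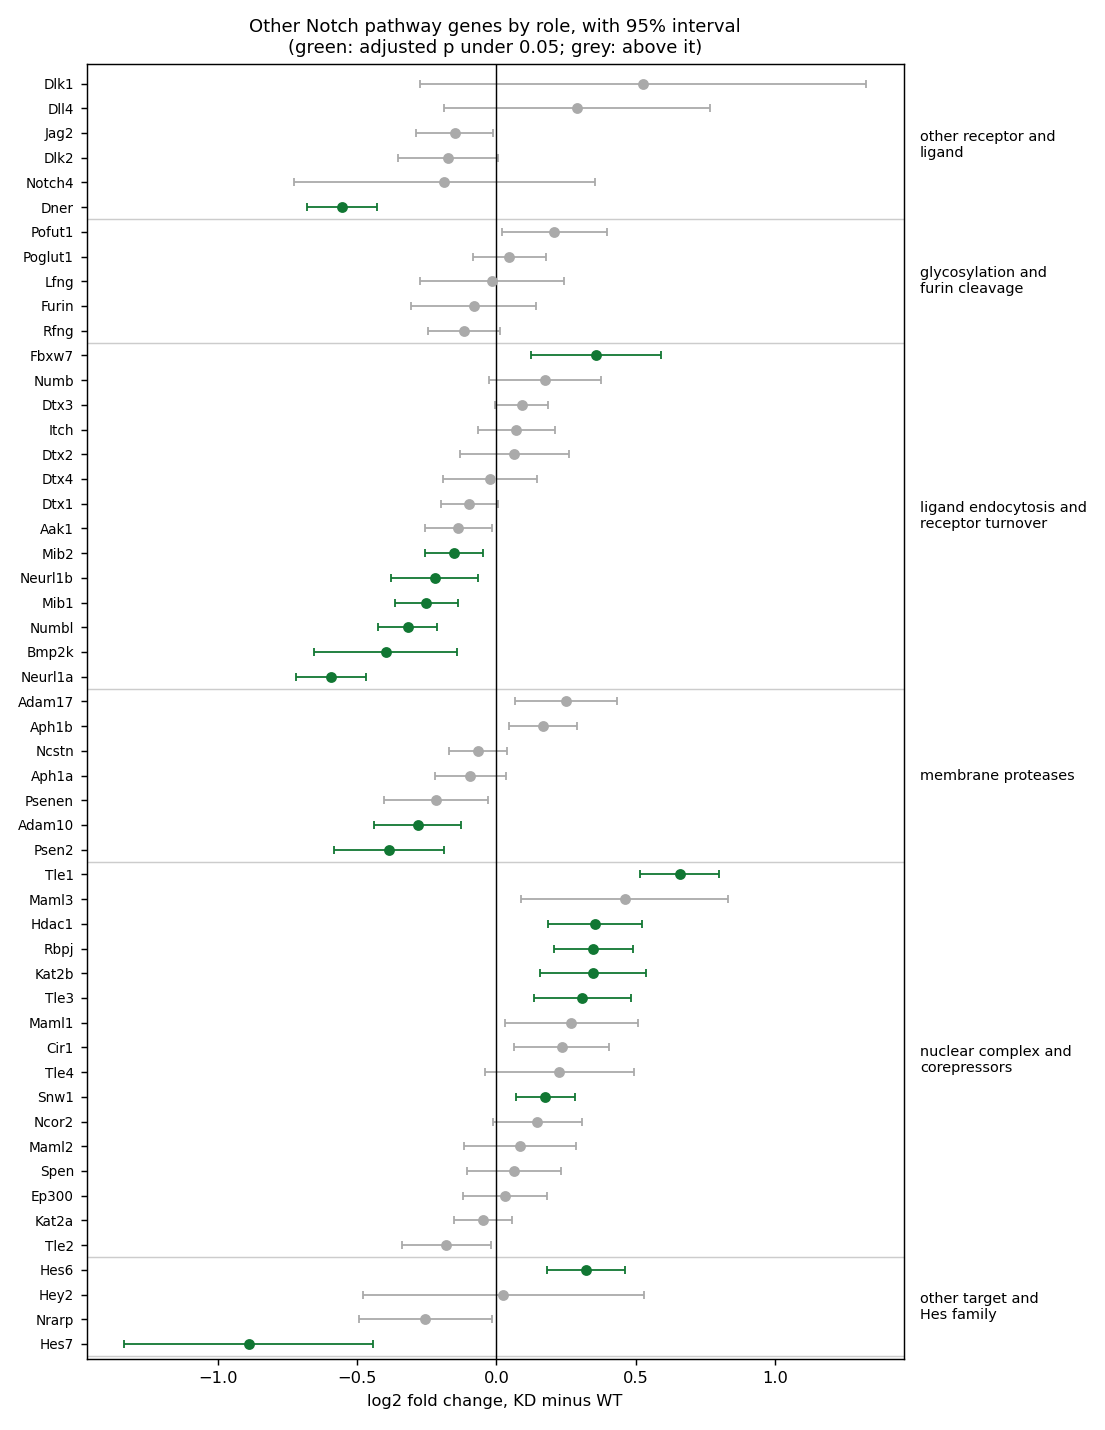
Log2 fold change with 95% interval of 52 of the 53 other Notch pathway genes tested, grouped by role (green where the adjusted p was under 0.05). In the nuclear group 6 genes are green and to the right of 0, and in the group of ligand endocytosis and receptor turnover 6 are green to the left and 1, Fbxw7, to the right.

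Cell type markers were set beside these genes. Their calls stand against 12% of all genes tested as higher and 11.9% as lower, or 18.6% and 18.1% with the replicate block. The 9 intermediate progenitor markers summed to 173.5 to 181.9 TPM in WT and 226.6 to 272.7 TPM in KD, and 5 of the 8 tested rose (7 higher and 1 lower with the replicate block). The largest part of each sum was Elavl2 (94.5 ± 10.95 TPM in WT, 82.2 ± 10.4 TPM in KD), which went the other way. Its log2 fold change was -0.25 (adjusted p = 0.103, and 9.05e-04 with the block). Eomes rose from 11.2 ± 4.85 to 33.2 ± 11.5 CPM (log2 fold change 1.57, adjusted p = 0.00813), a call lost in 1 of 17 alternatives (0.0733). The proneural gene Neurog2 rose from 5.61 ± 1.46 to 16.8 ± 2.33 CPM (1.58, adjusted p = 9.02e-04). Radial glia markers summed to 3069 to 3442 TPM in WT and 3507 to 3786 TPM in KD. Most of each sum was Fabp7 (2582 ± 186 TPM in WT, 2777 ± 58.9 TPM in KD), which did not pass the threshold (log2 fold change 0.04, adjusted p = 0.601). On log2(TPM + 1) the median log2 fold change over all genes tested was 0.046, so sums in TPM lean slightly towards KD. Of the 9 radial glia markers 1, Pax6, rose (0.61, adjusted p = 0.0185), with fractional counts and not without WT replicate 2 (0.0738). With the replicate block 6 of the 9 rose, among them Sox2 (adjusted p = 0.0119) and Vim (0.0109). The summed TPM of the neuron markers overlapped between groups. Of the 10 neuron markers 2 were higher and 2 lower (5 and 2 with the block), and Tubb3 was at -0.06 (adjusted p = 0.699). Of the 8 tested markers of astrocytes and oligodendrocyte precursors 2 fell (4 with the block). Microglia markers summed to 2.99 to 6.06 TPM and meningeal fibroblast markers to 2.6 to 5.83 TPM over all libraries. The part of a change in cell types in the values of the Notch genes was not tested.

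The genes with the most similar pattern were searched among 11438 genes with a mean of at least 5 CPM, by the root mean square difference of centred log2 CPM over the 6 libraries. Those nearest to Dll1 were Osbpl7 (0.024), the fibroblast growth factor receptor gene Fgfr1 (0.029) and Gldc (0.037), a glycine cleavage enzyme. Those nearest to Hes5 were Mlc1 (0.041), Tpbg (0.046) and Fuz (0.058), and those nearest to Notch1 were Per3 (0.042), Stag3 (0.042) and Helb (0.047). None of these 9 passed the threshold between KD and WT, but Fgfr1 was higher with the replicate block (adjusted p = 0.0364) and without WT replicate 3 (0.0322).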

How the data were processed

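RNA-seq was performed by the authors on cultured cortical cells from mouse embryos (E13.5). Total RNA was extracted with Trizol, mRNA was purified and libraries were sequenced on the DNBSEQ platform. The submitters' processing notes name HISAT2 2.2.1, Bowtie2 2.4.5 and RSEM 1.3.1 and the builds GRCm38 and mm10, without their roles. The annotation and the use of strand are not given in the sources used here. The deposited table holds an estimated count per gene and library and the TPM values that the authors scaled to 1000000 per library. Its 6 FPKM columns and 6 group averages were not used. The controls, called Ctrl in the columns and WT in the titles, were joined by replicate number.

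The test was that of edgeR 4.0.16 (R 4.3.3) on estimated counts after rounding, where whole counts had been assumed (TMM scaling, filterByExpr with a minimum count of 10, quasi-likelihood F test), with Benjamini-Hochberg adjustment over 13669 genes and a threshold of 0.05. SE was derived from F (the size of the log2 fold change over the root of F), and 95% intervals use it. CPM used TMM-scaled library sizes, and log2 CPM a prior count of 2. The calculations were tested on simulated data. Library totals of 16294635 to 16497505 estimated counts gave nearly equal depth, and edgeR's common biological coefficient of variation was 7.69%. Replicates of a group differed by more than sampling noise, with a chi-square of 4.57 to 9.05 per degree of freedom, so all 6 were kept as separate samples.

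Same-numbered WT and KD libraries deviated together from their group means (correlations over genes of 0.18 to 0.35, against -0.28 to -0.02 for different numbers). Deviations within a group sum to 0, so the negative values follow in part from the positive ones and are no separate contrast. By the positive values the numbers pair the libraries, although what they mark is not stated in the labels. The series text names 3 sequencing batches over the replicates without tying a library to any of them. The principal fit had no replicate block, and the fit with it is given beside the calls and group counts that it changes. Alternatives were other scalings and filters, DESeq2 1.42.0, limma 3.58.1 (voom, and trend on log2 TPM), the replicate block, omitted libraries and a stricter threshold.

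The members, the other Notch pathway genes and the marker lists were chosen with earlier results of these data known. Genes named are Ybx1, the 10 members, the 12 largest changes among the other pathway genes past the threshold, 9 genes of the core pathway, 4 markers, and the 3 genes nearest in pattern to each of Notch1, Dll1 and Hes5. Others named were chosen after their values were seen. Of the core pathway genes, 1 is not reported here. Gene positions and promoter windows are from RefSeq on GRCm38.p6, and overlaps between genes from GENCODE M21.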

Additional observations from a re-analysis of the deposited data

How the results depend on the processing

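Over the 17 alternatives, 138 of 170 results of single members kept their direction and side of the threshold, 25 lost and 6 gained a call, and 1 turned its direction: Hes5, at -0.076 to 0.21 when a library was left out (below 0 without WT replicate 1). Ybx1 was called lower in all, between -2.72 and -2.29 when a library was left out. Causes were not tested unless named. The risen members numbered 5 in the principal fit, 3 with upper quartile scaling, 1 at an adjusted p under 0.01, 0 without both libraries numbered 2, where fewer samples remain, and 1 to 6 when a library was left out, fewest without WT replicate 2. The fallen members numbered 0, 1 with the replicate block (Notch3), and 0 to 1 when a library was left out. Of the other pathway genes, 8 rose and 10 fell. With the replicate block 16 rose, on TPM 5 fell with either pseudocount, without both libraries numbered 2 there were 1 and 2, and leaving out a library gave 4 to 9 higher and 4 to 11 lower. Over all genes, 1646 rose and 1631 fell, against 1392 and 1845 with upper quartile scaling. The counts were 2539 and 2470 with the replicate block, 135 and 93 without both libraries numbered 2, 629 and 634 at an adjusted p under 0.01, and 779 to 1612 and 797 to 1583 when a library was left out. Limma-trend gave 1072 lower genes on log2(TPM + 1) and 1063 on log2(TPM + 0.1), so that 65.9% and 66.1% of calls were higher, against 50.2% in the principal fit. With the replicate block Notch1 and Notch3 gained a call and no other member's call changed. The difference between ligands and effectors was 0.02 to 0.18 higher in KD when a library was left out. Lfng, never called, was at 0.0065 with total count scaling, 0.0403 with TPM + 1 and 0.043 with TPM + 0.1, 0.039 without both libraries numbered 2, and -0.113 to 0.085 when a library was left out. Leaving out a library gave -0.143 to 0.025 for Tubb3, -0.044 to 0.224 for Mlc1 and -0.0397 to 0.287 for Fuz, the latter both below 0 without WT replicate 1. Hes1 had at most 103 estimated counts a library, and a limit from depth was not tested.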
